A study of Mus musculus with 2 samples.

Results

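The spliceosome is the machine of small nuclear RNAs and proteins that removes introns from pre-mRNA. Its genes were followed here in regenerating mouse liver. They were taken from the KEGG annotation in the deposited table as genes placed in the spliceosome and not also in ribosome biogenesis, 125 of the 34745 genes listed. The annotation gives the spliceosome to 126 genes, and 1 of these was left out because it is also placed in ribosome biogenesis. This rule uses no expression values, although it was set with earlier results of these data known. Of the 125 genes, 122 had at least 10 counts over both libraries and were tested. The other 3, *Rbmxl2*, *Gm4340* and *Gm8994*, had 0 counts in both libraries, which allows up to 3 counts in each.

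Poly(A) RNA was sequenced from liver after 2/3 partial hepatectomy (PH), a surgery in which 70% of the liver is removed and the remnant regrows. The miRNA-182 KO library came from mice that are heterozygous for the miR-182-5p knockout, so that a wild-type allele remains, and the control library came from wild-type (WT) mice. PH was done on male mice 8 to 10 weeks old and the RNA was taken at day 3 after surgery. The knockout mouse is not restricted to a cell type, and how many mice entered each library is not given in the sources used here. The question put to these samples was which liver genes differ between the genotypes during regeneration.

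Each genotype had 1 library, so no difference below has a replicate check. The total count was 13247497 for KO and 13163348 for WT. The 13 mitochondrial genes that encode proteins held 51.7% of all KO counts but 31.0% of those in WT, so nuclear genes as a whole had fewer counts in the KO library. Libraries were therefore scaled by TMM, which sets the typical gene to equal levels, and every log2 fold change is KO over WT on that scale. By total counts the median of all 13561 genes tested was −0.60 in place of 0.00, and each value below would be lower by about that amount. Of the 50 spliceosome genes with a log2 fold change above 0 on the TMM scale, 11 keep a value above 0 by total counts. *Mir182*, which the knockout targets, was not analysed here, and the labels were therefore not checked on its own level. Hepatocyte markers were abundant, with a summed level of 21126 FPKM (fragments per kilobase of gene, scaled by the total count of the library) in KO and 30373 FPKM in WT over 5 genes, of which 3 had intervals above 0 and 2 below 0.

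Markers of other liver cells also differed between the libraries. Their intervals are on the TMM scale, whereas the summed FPKM are scaled by total counts, which lowers nuclear genes in KO. On the TMM scale the median log2 fold change was −0.52 for the stellate, −0.31 for the Kupffer and −0.36 for the endothelial markers. Of 5 stellate cell markers, 4 were below 0 (summed level 20.9 FPKM in KO and 46.4 FPKM in WT), as were 4 of 5 Kupffer cell markers (32.7 and 63.7 FPKM) and 2 of 5 endothelial markers (5.37 and 10.2 FPKM), with none of these lists above 0. Of 4 cholangiocyte markers, 2 were above 0 and none below (summed level 2.64 and 3.21 FPKM). Those above 0 had few counts, *Krt19* with 26 in KO and 7 in WT and *Krt7* with 15 and 6. Neutrophil markers summed to 30.5 FPKM and 43.3 FPKM, with both genes tested holding 0 in the interval, *Ly6g* at 0 counts in both libraries and *Mpo* at 0 in KO. Lymphocyte markers summed to 0.705 FPKM and 0.555 FPKM, with 1 gene tested and above 0, and *Cd3e* at 0 in KO. Erythroid markers summed to 28.3 FPKM and 43.6 FPKM, with 1 of 3 genes tested above 0 and 2 below. In whole liver, fewer cells of a type and less RNA per cell cannot be told apart, and the part of these differences in the values of the spliceosome genes was not tested.

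Introns are removed in steps by particles called snRNPs, each a small nuclear RNA with a ring of Sm or LSm proteins and particle-specific proteins. The U1 snRNP binds the 5′ splice site and U2 the branch point. The U4/U6 and U5 particles then join as a tri-snRNP, RNA helicases drive the rearrangements, and the Prp19 complex stabilises the active centre. SR proteins and hnRNPs bind the pre-mRNA and shift the choice of splice sites, mostly in opposite directions, and the exon junction and TREX complexes mark the spliced mRNA for export. KEGG also lists Hsp70-family heat shock proteins in the pathway, chaperones best known for folding proteins.

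A gene was called higher or lower when its log2 fold change was at least 1 in size and its exact binomial test, adjusted by the Benjamini-Hochberg method over all 13561 genes, reached 0.05. With single libraries the test speaks of these libraries only, not of the genotypes. By this rule 4 of the 122 spliceosome genes were higher in the KO library, 3.28%, where 7.97% of all genes tested were. Another 7 were lower, 5.74%, where 8.32% of all genes were. By total counts 2 were higher, 1.64% against 3.47% of all genes, and 36 lower, 29.5% against 25% of all genes. A weaker criterion counts the genes whose 95% exact binomial interval, which covers counting error only, lay wholly on a side of 0. It placed 33 spliceosome genes above 0, or 27.0% against 25.8% of all genes, and 46 below 0, or 37.7% against 26.2%. The remaining 43 held 0 in the interval. By total counts 7 lay above 0, 5.74% against 6.91% of all genes, and 101 below, 82.8% against 60.3%. With the deposited FPKM, which share that scaling, 1 gene was past 2-fold upward, where 2.99% of all genes were, and 33 downward, where 21.6% were.

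On the TMM scale the share of spliceosome genes called was below that of all genes in both directions, and by total counts and with FPKM the share called lower was above it. Within 2-fold were 90.2% of them and 80.6% of all genes tested, a difference that was not tested. Their median log2 fold change was −0.10, beside 0.00 for all genes. By total counts the medians were −0.70 and −0.60. The gap of −0.10 cannot change with the scaling, which shifts every gene by about the same amount. Their reads made up 0.331% of the KO counts (95% exact interval 0.328% to 0.334%) and 0.489% of the WT counts (0.485% to 0.493%). As a share of the nuclear counts these were 0.760% in KO and 0.739% in WT. They were well expressed, with a median of 5.33 FPKM in WT beside 1.86 FPKM for all genes tested.

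**Figure D1:**
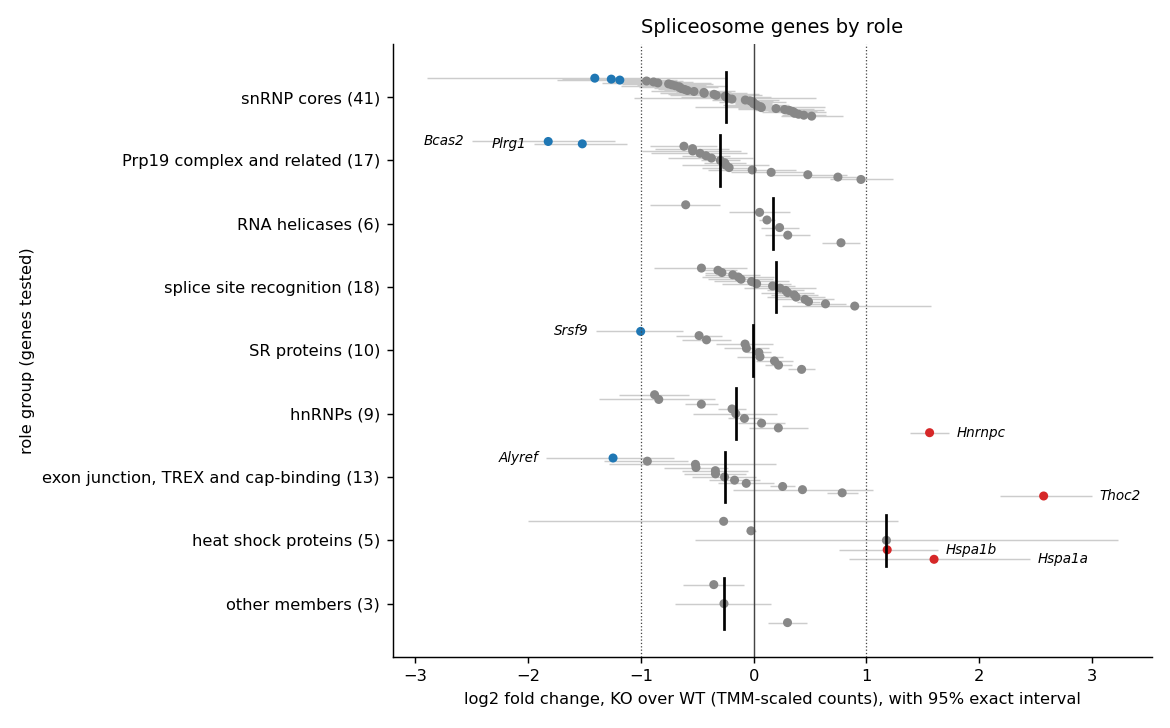
Log2 fold change, KO over WT on TMM-scaled counts, of the 122 spliceosome genes tested, 1 point a gene with its 95% exact interval, in rows by role, with the group median as a black bar and dotted lines at 1 and −1. Red points were called higher and blue points lower, the snRNP calls are named in the plot of snRNP proteins, and by total counts the points shift to the left by about 0.60, those with few counts by slightly less.

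The snRNP cores, the protein bodies of the U1, U2, U4/U6 and U5 particles, were the largest group, with 41 genes. None was called higher and 3 were called lower, 8 had intervals above 0 and 19 below, and the median was −0.24. The groups of proteins within them did not sit together. In the Sm ring, the 7 proteins that encircle the U1, U2, U4 and U5 RNAs, 5 of 7 genes lay below 0 and none above, with a median of −0.53. In the LSm ring, which sits on the U6 RNA, 5 of 7 also lay below 0 and none above, with a median of −0.66. Of 12 tri-snRNP proteins, by contrast, 6 lay above 0 and 2 below, with a median of 0.17 that turns to −0.43 by total counts.

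*Snrpg*, the smallest Sm protein, at chr6:86371304-86379328 in the deposited coordinates, had 40 counts in KO and 138 in WT. Its log2 fold change was −1.19 (95% exact interval −1.74 to −0.68), and it was called lower. *Snrpg* shares 18.0% of its 51-base words with other genes' transcripts, and with its near copy *Gm8186* added the counts were 124 and 362 and the log2 fold change −0.95, no longer at the 2-fold limit. *Snrpd1*, the most abundant snRNP core gene per length, had 265 counts in KO and 622 in WT, or 23.9 FPKM and 56.5 FPKM, which gave −0.64 (−0.85 to −0.43) on the log2 scale. *Snrpd3* at −0.61, *Snrpb* at −0.53 and *Snrpd2* at −0.19 made up the 5 below 0, and *Snrpf* at −0.07 and *Snrpe* at 0.20 held 0 in their intervals.

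*Lsm5* was called lower in the LSm ring from few reads, 7 in KO and 29 in WT. Its log2 fold change of −1.41 had an interval of −2.89 to −0.24, and 20.5% of its words occur in other genes. More reads stood behind *Lsm4*, with 107 and 312 counts (−0.95), and *Lsm6*, with 237 and 563 counts (−0.66). *Lsm2* at −0.89 and *Lsm3* at −0.44 were the others below 0. *Lsm8*, the subunit that marks the nuclear ring on U6, had 84 and 150 counts and an interval that held 0 (−0.65 to 0.15), as did that of *Lsm7*.

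Among the 3 U1 proteins the median was −0.25. *Snrpc*, the C protein of U1, which steadies the pairing of U1 with the 5′ splice site, had 62 counts in KO and 225 in WT. It was called lower at −1.26 (−1.70 to −0.86) and maps to chr17:27839974-27851968. *Snrnp70* stood at −0.25 with its interval below 0. *Snrpa*, the most abundant of the 3 at 12.7 FPKM in WT, had 487 and 735 counts and a log2 fold change of 0.00 (−0.17 to 0.17), so members of the same particle did not lie together.

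The 12 U2 proteins had a median of −0.19, with 2 above 0 and 5 below. They fell apart by subunit within SF3b, the complex that holds the branch point. *Sf3b4* had 51 and 139 counts (−0.85), *Sf3b6* had 73 and 186 (−0.75) and *Sf3b5* had 127 and 317 (−0.73), each with its interval below 0. Of the words of *Sf3b4*, 49.1% occur in another gene's transcripts. *Sf3b1*, the largest subunit and the one that grips the branch point helix, had 1569 counts in KO and 1840 in WT and lay above 0 at 0.36 (0.26 to 0.46). *Sf3b2* and *Sf3b3* held 0. *Sf3a2* had 218 and 230 counts and the highest value of the snRNP cores, 0.51 (0.24 to 0.79). Both values above 0 turn negative by total counts, as does every snRNP core value above 0.

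In the tri-snRNP, *Ddx23*, a helicase needed for its entry, had 401 counts in KO and 444 in WT, a log2 fold change of 0.44 (0.25 to 0.64). *Prpf8*, the scaffold of the active centre, had 973 and 1113 counts (0.40; 0.27 to 0.52). The other 4 above 0 were *Prpf3*, *Prpf6*, *Prpf31* and *Sart1*, between 0.27 and 0.36. The 2 below 0 were the small proteins *Txnl4a*, with 56 and 137 counts (−0.69), and *Snrnp27*, with 99 and 236 counts (−0.66). *Eftud2*, *Snrnp200*, *Prpf4* and *Ppih* held 0. None of the 12 was called.

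**Figure D2:**
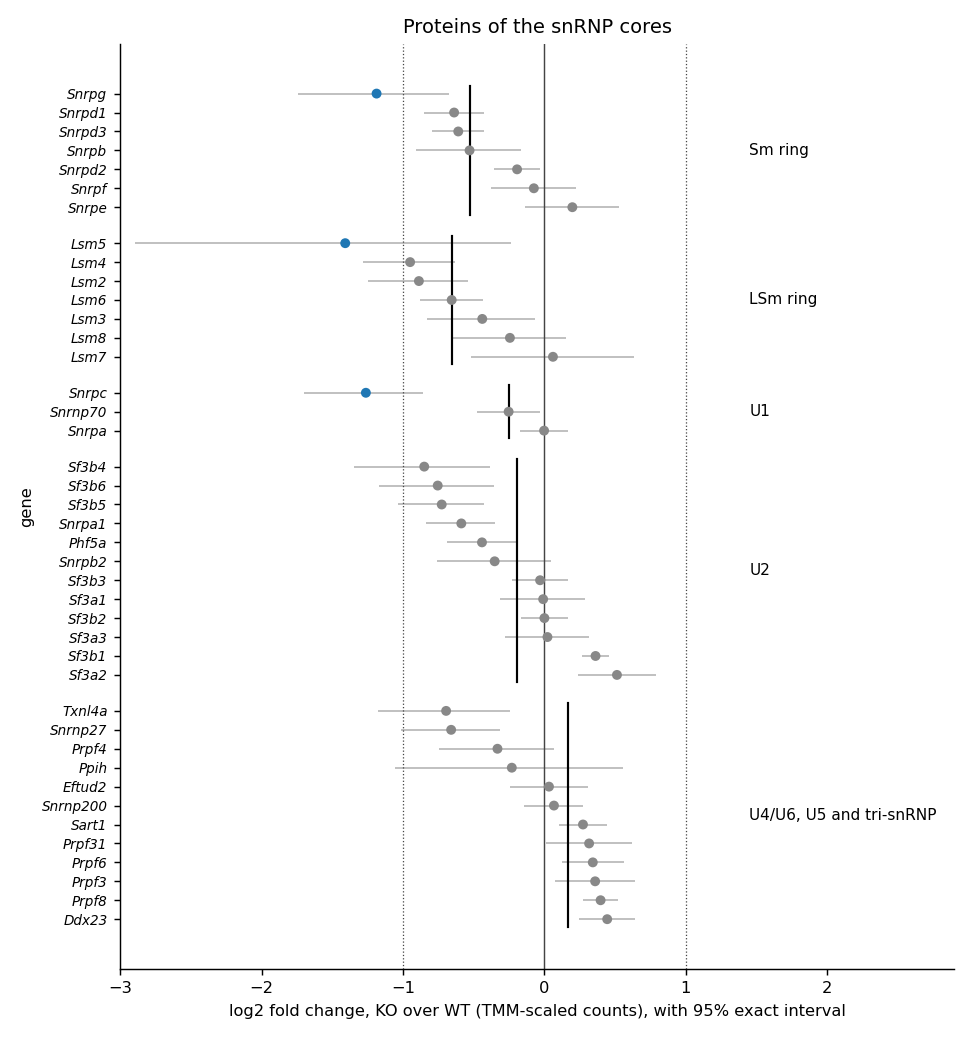
Log2 fold change, KO over WT on TMM-scaled counts, with 95% exact intervals for the 41 snRNP core genes, sorted within each particle, with particle medians as black bars and called genes in blue. The Sm and LSm medians lie at −0.53 and −0.66 and the tri-snRNP median at 0.17, which turns to −0.43 by total counts.

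The Prp19 complex and its partners carried the lowest values of all spliceosome genes. Of 17 genes, 10 lay below 0 and 3 above, none was called higher and 2 were called lower, and the median was −0.29. *Bcas2* (chr3:103171655-103179166), a core subunit of the complex, had 26 counts in KO and 140 in WT. It was called lower at −1.82 (−2.50 to −1.23). *Plrg1* (chr3:83055522-83072355), another core subunit, had 62 and 269 counts and was called lower at −1.52 (−1.95 to −1.12). Neither gene shares words with another gene or overlaps a listed gene.

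The remaining core subunits of the complex differed less. *Prpf19*, the ubiquitin ligase that names it, had 419 and 775 counts and a log2 fold change of −0.29 (−0.47 to −0.12). *Cdc5l* had 90 and 161 counts and held 0 (−0.64 to 0.13). *Cwc15*, the most abundant of the group at 18.5 FPKM in KO and 37.7 FPKM in WT, had 273 and 552 counts (−0.42; −0.64 to −0.21). At the other end stood *Ccdc12*, with 244 counts in KO and 190 in WT (0.95; 0.67 to 1.23), and *Xab2*, with 313 and 281 (0.75; 0.51 to 0.99). These 2 had more counts in the KO library outright, and their log2 fold changes, though not necessarily their intervals, stayed above 0 by total counts, at 0.35 and 0.15.

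Of the 6 RNA helicases, 4 lay above 0 and 1 below, none was called, and the median of 0.17 turns to −0.43 by total counts. *Dhx16*, which remodels the spliceosome before the first step, had 606 counts in KO and 534 in WT. Its log2 fold change of 0.77 (0.60 to 0.95) stayed above 0 by total counts, at 0.17. *Ddx42* had 382 and 467 counts (0.30; 0.10 to 0.50). *Ddx5*, the most abundant at 20.4 FPKM in KO and 28.5 FPKM in WT, had 2566 and 3565 counts (0.12; 0.04 to 0.19), and 23.5% of its words occur in other genes. *Dhx38*, a helicase of the second step, had 194 and 282 counts and held 0 (−0.22 to 0.32). *Dhx15*, which takes the spent spliceosome apart, was the single helicase below 0, with 127 and 291 counts (−0.60; −0.92 to −0.30).

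Proteins of splice site recognition and early assembly made up 18 genes, 8 above 0 and 3 below, none called, with a median of 0.20 that turns to −0.40 by total counts. *Prpf38b* had 489 counts in KO and 474 in WT (0.64; 0.45 to 0.82). *Rbm25*, a U1-associated regulator of splice site choice, had 1532 and 1649 counts (0.49; 0.38 to 0.59). The 3 below 0 were among the most abundant. *U2af1*, the small U2AF subunit that reads the 3′ splice site, had 74 and 154 counts (−0.46; −0.89 to −0.06), whereas its partner *U2af2* had 545 and 675 (0.28; 0.12 to 0.45). Of the words of *U2af1* 59.1% occur in other genes' transcripts, and of those of *U2af2* 24.2%, so how their reads were assigned is uncertain. *Zmat2* had 417 and 783 counts (−0.32). *Puf60*, the top of the group at 43.1 FPKM in WT, had 592 and 1085 counts (−0.28; −0.43 to −0.14).

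SR proteins bind exonic enhancers and recruit the splicing machinery. Of 10 genes, 3 lay above 0 and 3 below, with a median of −0.01. *Srsf9* (chr5:115327177-115333080) had 76 counts in KO and 230 in WT and was called lower at −1.0 (−1.40 to −0.63). That value sits on the 2-fold limit, and the call was lost under 6 of the 12 alternatives tried, with values of −0.97 to −1.0. *Srsf3* had 293 and 618 counts (−0.48; −0.69 to −0.28), and 18.1% of its words occur in other genes. *Srsf4*, the most abundant SR gene at 17.4 FPKM in KO and 19.6 FPKM in WT, had 1058 and 1188 counts (0.42; 0.30 to 0.55). *Srsf2* had 959 and 1241 counts (0.22; 0.10 to 0.34). No SR gene stayed above 0 by total counts.

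SR-related proteins and the kinases that phosphorylate SR proteins are not in the pathway list. Of 12 of these tested, 7 lay above 0 and 2 below, none was called, and the median was 0.39, which the shift to total counts would turn negative. All 4 CLK kinases, which release SR proteins from nuclear speckles, lay above 0 on the TMM scale, from 0.40 for *Clk1* to 0.79 for *Clk2*. By total counts the values of *Clk1*, *Clk3* and *Clk4* would turn negative. *Clk2* had 500 counts in KO and 436 in WT. *Srpk2*, a kinase of the cytoplasm and nucleus, lay below 0 with 124 and 298 counts (−0.67).

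The hnRNPs coat nascent pre-mRNA and often silence splice sites. Of 9 genes tested, 1 lay above 0 and 4 below, with a median of −0.16. The exception was *Hnrnpc* (chr14:52073380-52104028), which binds uridine-rich tracts. It had 812 counts in KO and 415 in WT, or 19.5 FPKM and 10.0 FPKM, and was called higher at 1.56 (1.39 to 1.73). By total counts the value was 0.96, still above 0 but under the 2-fold limit. Of its words, 12.0% occur in other genes' transcripts.

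*Rbmx* had 120 counts in KO and 333 in WT (−0.88; −1.19 to −0.57), and *Rbmxl1*, an intronless relative, had 45 and 122 (−0.84; −1.37 to −0.34). *Rbmxl1* shares 78.6% of its words with other genes, so how its reads were assigned is uncertain. *Pcbp1*, a poly(C)-binding protein and the most abundant hnRNP of the pathway per length, had 867 and 1493 counts, or 35.8 FPKM and 62.0 FPKM (−0.19; −0.31 to −0.07). *Hnrnpa3* had 217 and 281 counts and held 0 (−0.04 to 0.48), and the value of 0.22 became −0.34 when the counts of the genes that share at least 10% of its words were added. *Hnrnpk* had 553 and 1150 counts (−0.46), and −0.80 with its near copy *Gm7964* added.

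Of 17 other hnRNPs and relatives outside the pathway list, 2 lay above 0 and 6 below, with a median of −0.09. *Ptbp1*, a repressor of exons flanked by pyrimidine tracts, was the single one called. It had 295 counts in KO and 1210 in WT, a log2 fold change of −1.44 (−1.63 to −1.26).

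The exon junction, TREX and cap-binding proteins held the highest value of all spliceosome genes. Of 13 genes, 3 lay above 0 and 5 below, with 1 called in each direction and a median of −0.26. *Thoc2* (chrX:41794991-41920674), the large scaffold of the THO complex within TREX, had 258 counts in KO and 65 in WT. Its log2 fold change of 2.57 (2.18 to 3.0) was the highest of the 122, and by total counts it was 1.97. At 1.15 FPKM in KO and 0.291 FPKM in WT it was also among the least abundant spliceosome genes. Its partners did not share the difference, with *Thoc3* at 83 and 241 counts (−0.94; −1.32 to −0.58) and *Thoc1* at 218 and 344 (−0.07; −0.32 to 0.18).

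*Alyref* (chr11:120592121-120598365), the adaptor that hands mRNA from TREX to the export receptor, had 35 counts in KO and 126 in WT. It was called lower at −1.25 (−1.84 to −0.71). *Ddx39b*, the helicase that loads it, had 1169 and 1475 counts and lay above 0 (0.26; 0.14 to 0.37). In the exon junction complex, *Magoh*, the most abundant of the group at 22.9 FPKM in WT, had 153 and 329 counts (−0.51; −0.80 to −0.23). *Acin1*, which joins the junction complex, had 936 counts in KO and 819 in WT (0.78; 0.65 to 0.92).

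**Figure D3:**
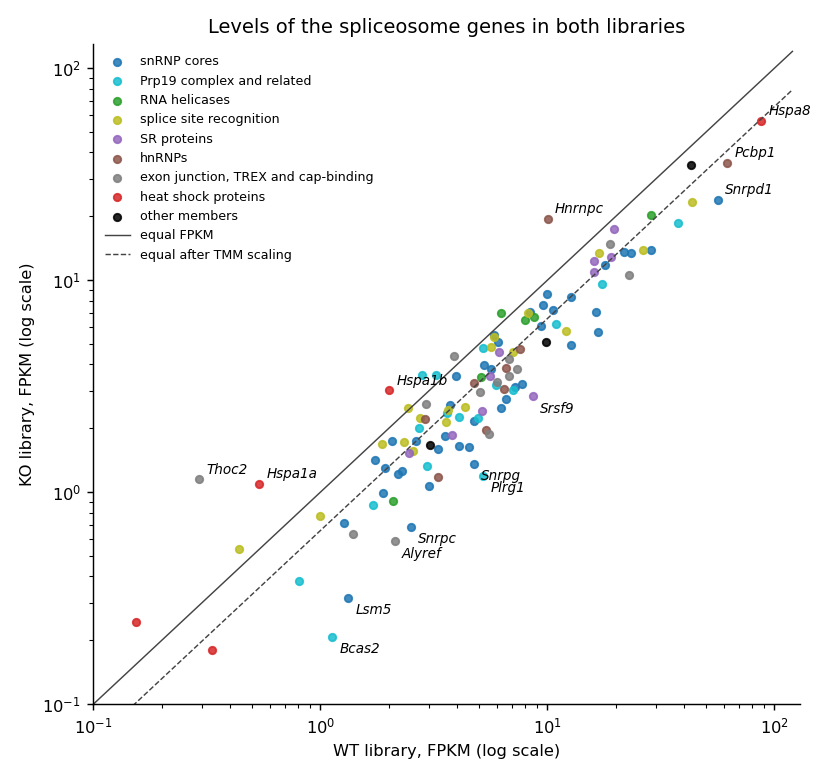
FPKM of each of the 122 spliceosome genes in the WT library (x) and the KO library (y), both on log axes, coloured by role, with a solid line at equal FPKM and a dashed line at equality after TMM scaling. Most genes follow the dashed line. The genes called higher, *Thoc2*, *Hspa1a*, *Hspa1b* and *Hnrnpc*, lie above the solid line, as do some genes not called, such as *Ccdc12* and *Dhx16*. *Bcas2*, *Plrg1* and *Lsm5* lie furthest below the dashed line.

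Of the 5 heat shock proteins, 2 were called higher and none lower, and the other 3 held 0, with a median of 1.18. All are Hsp70-family members, and *Hspa8*, the constitutive Hsc70, carried most of their reads. *Hspa8* had 6807 counts in KO and 10433 in WT, or 56.6 FPKM and 87.3 FPKM, the highest level of the 122 genes. Its log2 fold change was −0.02, with an interval of −0.07 to 0.02 that held 0. Of its words, 51% occur in other genes' transcripts.

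The inducible pair differed. *Hspa1a* (chr17:34969190-34972156) had 43 counts in KO and 21 in WT and was called higher at 1.6 (0.84 to 2.45). *Hspa1b* (chr17:34956436-34959238) had 112 and 74 counts and was called higher at 1.18 (0.75 to 1.63). Both had more reads in the KO library even before scaling, although by total counts *Hspa1b* stood at 0.59 and was not called. The genes are near copies, 60.1% of the words of *Hspa1a* and 62.0% of those of *Hspa1b* being shared, so reads cannot be assigned to either with certainty. Summed, they had 155 counts in KO and 95 in WT, a log2 fold change of 1.30.

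*Hspa1l* had 8 counts in KO and 5 in WT (1.18; −0.52 to 3.23), and *Hspa2*, known mainly from the testis, had 6 and 11 (−0.27; −2.0 to 1.28). Differences in these 2 were not detectable at this depth. The group median, which is 0.59 by total counts, thus rests on 5 genes, of which 4 had at most 112 counts in a library.

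The promoters of the inducible pair are shown because heat shock factors act on them through heat shock elements, inverted repeats of the bases GAA. Each sequence is the 250 bases before the RefSeq start on GRCm38.p6, minus strand, 5′ to 3′, and the capitals mark the match to GAANNTTC.
Hspa1a, chr17:34972157-34972406: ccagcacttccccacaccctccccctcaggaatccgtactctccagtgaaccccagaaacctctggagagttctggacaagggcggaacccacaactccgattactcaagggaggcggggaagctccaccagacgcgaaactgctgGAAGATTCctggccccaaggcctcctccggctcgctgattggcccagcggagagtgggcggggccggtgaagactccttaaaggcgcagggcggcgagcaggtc
Hspa1b, chr17:34959239-34959488: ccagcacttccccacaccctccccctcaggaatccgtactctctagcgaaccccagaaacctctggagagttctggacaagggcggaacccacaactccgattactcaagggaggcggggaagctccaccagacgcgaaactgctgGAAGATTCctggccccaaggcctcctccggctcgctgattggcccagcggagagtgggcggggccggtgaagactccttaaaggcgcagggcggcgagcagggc
The motif was searched as GAANNTTC or TTCNNGAA, each its own reverse complement, so both strands were covered and the 2 forms can overlap.

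Each window held 1 match, whose first base lies 104 bases before the start, and 247 of the 250 bases were identical between the genes. The windows of *Hspa1l*, which starts 547 bases from *Hspa1a* on the opposite strand, and of *Hspa2* held no match, and no window for *Hspa8* was used here. Of all 32851 windows, searched only in the part before the start, 12.8% held a match. Of the 98 spliceosome genes with a window, 17 held a match in any of their windows, 17.3%. The first share is by window and the second by gene, so a gene with several windows had more chances to match. A match describes the letters and is no measure of binding.

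Other chaperones give the setting of these values. Of 18 tested, 7 lay above 0 and 7 below, with a median of 0.00. *Hspa5*, the Hsp70 of the endoplasmic reticulum, was the single one called, with 2783 counts in KO and 1508 in WT (1.48; 1.39 to 1.57). *Hsp90b1*, of the same compartment, had 9406 and 11137 counts (0.35, a value that the shift to total counts would turn negative). The lowest value of the 18 was that of *Hspa13*, with 71 and 199 counts (−0.89; −1.31 to −0.50). The mitochondrial chaperones lay below 0, with *Hspa9* at −0.71, *Hspd1* at −0.49 and *Hspe1* at −0.84. Of genes tied to the heat shock response in the cytosol, *Hsph1* stood at 0.91 and *Hsp90aa1* at 0.68. *Bag3* stood at 0.58 and the factor *Hsf1* at 0.57, and all of these had intervals above 0 on the TMM scale. By total counts the values of *Bag3* and *Hsf1* would turn negative. The interval of *Hsp90aa1*, 0.58 to 0.78 on the TMM scale, would then hold 0. *Dnaja1* at −0.55, *Hspa4* at −0.31 and *Hsp90ab1* at −0.12 lay below 0. *Dnajb1* at 0.11 and *Hspb1* at −0.38 held 0.

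**Figure D4:**
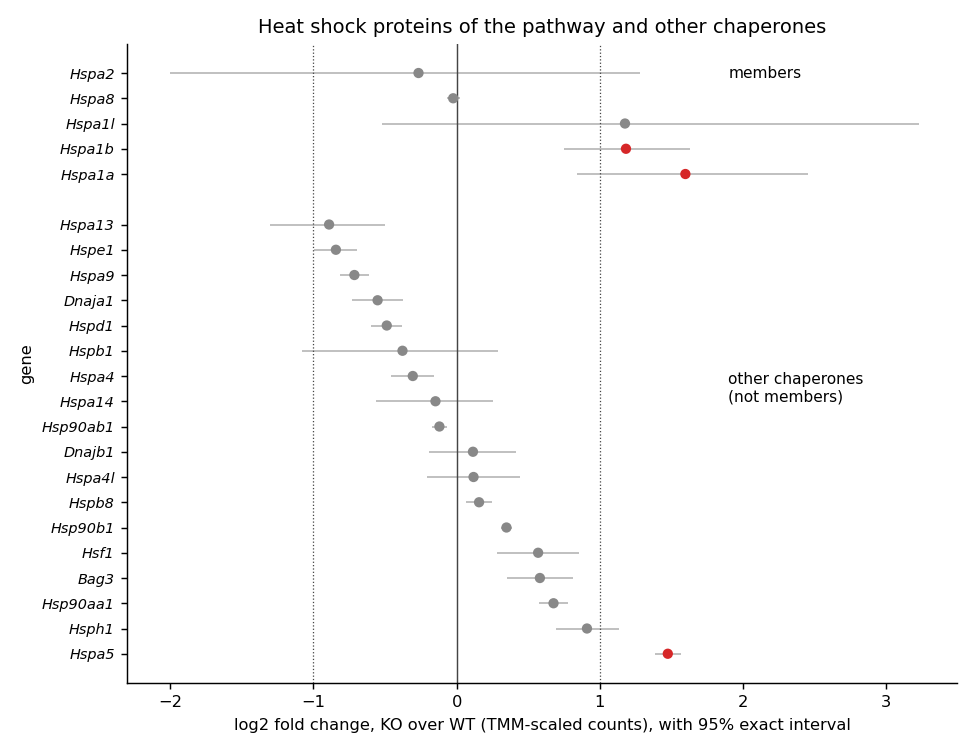
Log2 fold change, KO over WT on TMM-scaled counts, with 95% exact intervals for the 5 heat shock proteins of the pathway (top) and 18 other chaperones (bottom), red where called higher. *Hspa1a*, *Hspa1b* and *Hspa5* are called, and the intervals of *Hspa1l* and *Hspa2* span 0 widely.

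Finally, 3 genes fell in no role group. *Rp9* had 526 and 644 counts (0.30; 0.13 to 0.47) and was the fifth most abundant spliceosome gene in WT, at 42.8 FPKM. *Pqbp1* had 178 and 343 counts (−0.35; −0.62 to −0.09). *Cdc40*, a factor of the second step, had 74 and 134 counts and held 0 (−0.69 to 0.16).

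A feature that the choice of genes did not use, the length of the coding sequence, was set against these values, a comparison not planned in advance. The 122 genes were divided by coding length into 4 bins of 30 or 31 genes. In the shortest bin, 31 genes with 228 to 654 coding bases, 21 lay below 0 and 2 above, with a median of −0.48. Of the 1873 genes of that coding length among all genes tested, 40.3% lay below 0 and 15.8% above, with a median of −0.20. In the longest bin, 31 genes with 2049 to 7005 coding bases, 2 lay below 0 and 16 above, with a median of 0.23. The 3363 genes of that length had 18.2% below 0, 33.9% above and a median of 0.14. The spliceosome genes thus ran in the same direction as all genes of the same coding length, and the difference in steepness was not tested.

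Across the 122 genes Spearman's rho of coding length with log2 fold change was 0.52, and across 12581 genes tested that have a coding length it was 0.18. Genes are not independent replicates, and all points share the same 2 libraries and the same scaling. Among the 94 spliceosome genes that share at most 10% of their words, rho was 0.54. It was 0.63 among the 41 snRNP cores, which hold the shortest genes (*Snrpg*, *Lsm6*, *Sf3b5*) and the longest (*Prpf8*, *Snrnp200*), 0.62 among the 13 exon junction, TREX and cap-binding genes and 0.44 among the 10 SR genes. It was 0.22 among the 18 splice site recognition genes and 0.18 among the 17 Prp19 genes, and it ran the other way, at −0.23, among the 9 hnRNPs. With the gene length that the deposited FPKM imply, rho was 0.27 for the spliceosome genes and 0.10 for all genes. For some genes this implied length exceeds the listed span, so it is not the length of their exons. An example is *Srsf5*, with 10708 bases by it at chr12:80945504-80950507. With GC content of the longest transcript rho was 0.18 and 0.06, and with the WT level in FPKM −0.07 and −0.20.

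**Figure D5:**
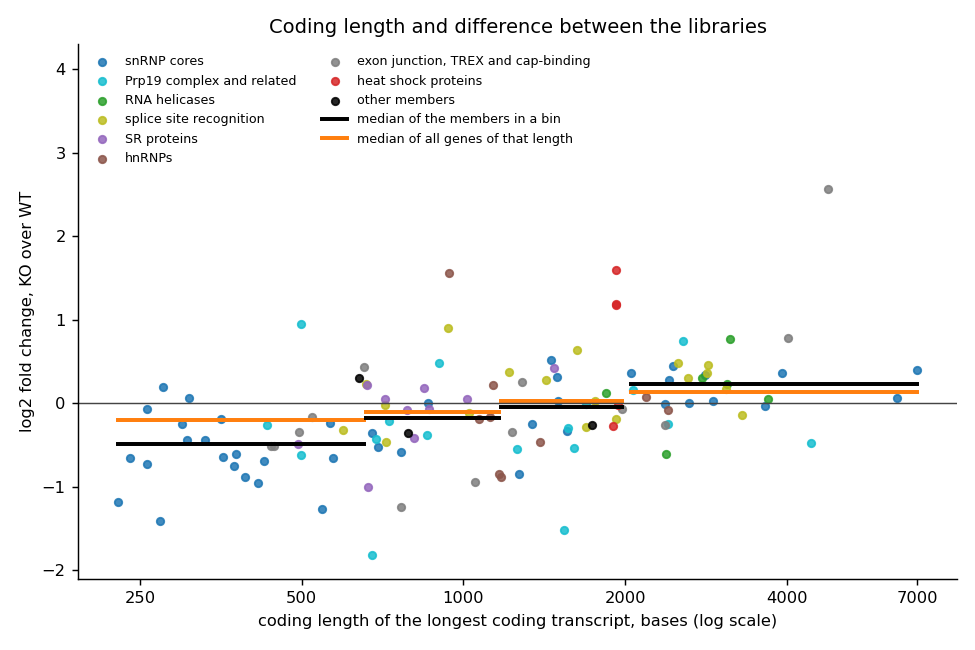
Coding length in bases (x, log axis) and log2 fold change, KO over WT on TMM-scaled counts (y), of the 122 spliceosome genes, 1 point a gene coloured by role, with the median of the members in each of 4 bins of coding length in black and the median of all genes of that length in orange. The black medians run from −0.48 to 0.23 and the orange medians from −0.20 to 0.14, and by total counts the points shift down by about 0.60.

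The microRNA that was targeted is shown with its sites because mRNAs whose 3′ untranslated regions pair with the seed are the usual targets of a microRNA. The mature sequence, from RefSeq on GRCm38.p6, has the seed, bases 2 to 8, in capitals, and in the target sites, read from GENCODE M21 transcripts on GRCm38, capitals mark the 8 bases complementary to bases 1 to 8 of the microRNA, the seed and the base before it.
mmu-miR-182-5p, chr6:30165962-30165986, minus strand: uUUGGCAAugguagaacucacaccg
Ppil1, site at chr17:29251168-29251175, minus strand: atattgaattgTTGCCAAAtgaaaaatgca
U2surp, site at chr9:95458382-95458389, minus strand: agacaaacctgTTGCCAAAatgagttaacc
Only these 2 of the 122 spliceosome genes held this 8-base site in the longest annotated 3′ untranslated region, 1.64%, where 690 of 12573 genes tested did, 5.49%. Matches to the seed alone, bases 2 to 8, were not counted. The 3′ untranslated regions of the spliceosome genes were also shorter, with a median of 748 bases against 1305.

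*Ppil1*, a prolyl isomerase bound to the Prp19 proteins, had 136 counts in KO and 315 in WT (−0.62; −0.92 to −0.32). *U2surp*, a U2-associated protein, had 380 and 510 counts and held 0 (−0.03 to 0.36). Neither was called. Over all genes tested, the median log2 fold change was 0.00 with the site and −0.01 without it. None of the 11 called spliceosome genes held this 8-base site.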

How the data were processed

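The sequencing data comprised 1 liver library for each genotype. The authors deposited, for 34745 genes, the number of reads counted on each gene, without normalization, and FPKM, which divide those counts by gene length and total count. The gene length that these FPKM imply exceeds the listed span for some genes, so levels and ranks compared between genes depend on that length. The submitters' processing notes name HISAT2 2.0.4, StringTie and edgeR, and a human genome build, hg38, although the deposited identifiers are mouse genes. Of the 125 spliceosome genes, all are in GENCODE M21 (GRCm38) and 92 have the same coordinates there, so coordinates are given as the authors list them. Strandedness of the library and the treatment of reads that match several places are not given in the sources used here. Differentially expressed gene calls of the authors were not used.

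A gene was tested when its counts in KO and WT summed to at least 10. Library sizes were scaled by TMM (edgeR 4.0.16 in R 4.3.3), and log2 fold changes were taken with a prior count of 0.5. For each gene, a two-sided exact binomial test set the KO count against the proportion of reads that the scaled library sizes predict, in Python 3.11.15 with scipy 1.17.1, with Benjamini-Hochberg adjustment over all 13561 genes. Intervals are exact Clopper-Pearson 95% intervals, and reads carry no molecular identifiers, so intervals and the limit of 3 counts for a gene at 0 cover counting error only. The steps were tested on simulated counts that held counting error only. Both simulated libraries had the same mitochondrial share and no spread between animals, so the run could not test how the steps handle either. Tables were handled with pandas 2.3.3 and numpy 2.4.6, and figures were drawn with matplotlib 3.10.9.

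The genes, role groups, other gene lists, cell type markers and tests were chosen with earlier results of these data known. Named genes are every called gene, in each role group the 2 highest and the 2 lowest with at least 100 counts in the higher library, all of a group of 5 or fewer, and the gene with the most FPKM in WT. Further members of the snRNP, Prp19, THO, U2AF and hnRNP groups, of the SR kinases and chaperones, and the genes with a miR-182-5p site were named after their values were seen. Shared sequence is given as the percentage of 51-base words in the longest transcript that transcripts of any other gene also hold. Coding lengths are those of the longest coding sequence in GENCODE M21, which 12581 of the 13561 genes tested have. The alternatives tried were total counts, total counts without mitochondrial genes, upper-quartile scaling, DESeq2 1.42.0 size factors, a prior count of 5, a minimum of 1 or 50 counts, the deposited FPKM with 0.1 added, a 2-fold change with no test, and edgeR's exact test with an assumed coefficient of variation of 0.1, 0.2 or 0.4. Removal of genes that share over 10% of their words was added after the data had been seen. The comparisons with coding length, the gene length implied by FPKM, GC content and WT level were not planned in advance either.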

Additional observations from a re-analysis of the deposited data

How the results depend on the processing

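No paired analysis was possible because KO and WT were 1 library each, and no replicate could be left out. By total counts 2 spliceosome genes were called higher and 36 lower (3.47% and 25% of all genes), with 7 intervals above 0 and 101 below (6.91% and 60.3% of all genes). The median of all genes was then −0.60, and the medians were −0.70 for all members, −0.84 for snRNP cores, −0.61 for SR proteins and −0.76 for hnRNPs. With the deposited FPKM, which are scaled by total counts, 1 was past the 2-fold limit upward and 33 downward (2.99% and 21.6% of all genes), with medians of −0.67, −0.80, −0.60 and −0.75. The upper quartile, DESeq2's size factors, totals without mitochondrial genes, the prior count, the minimum count and the absence of a test left 4 or 5 higher and 5 to 7 lower. Of all genes, 656 to 1283 were then higher and 728 to 1348 lower, out of 10916 to 16393 tested. Single libraries cannot measure the spread between animals. With an assumed coefficient of variation of 0.2 in edgeR's exact test, 2 were called higher and 2 lower, where 488 and 444 of the 13561 genes tested were. With 0.4 the counts were 0 and 0, where 59 and 58 of all genes were called. *Lsm5* lost its call even at 0.1. Without the genes that share over 10% of their words, 94 were tested and 1, *Thoc2*, was called higher, with 5 lower and a median of −0.07. Of all genes tested, which were not filtered in this way, 7.97% were called higher and 8.32% lower. No called gene changed sign under these alternatives. Genes with few reads, such as *Hspa1l* and *Hspa2*, are limited by depth.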

Other observations

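The minor spliceosome removes a rare class of introns with its own U11, U12 and U4atac/U6atac particles. Of 11 of its genes tested, 2 lay above 0 and 2 below, with a median of 0.18 that would lie below 0 by total counts. *Snrnp25*, a protein of the U11/U12 particle, was called lower, with 26 counts in KO and 127 in WT and a log2 fold change of −1.68 (95% exact interval −2.36 to −1.08). *Snrnp35*, of the same particle, had 22 and 59 counts (−0.82; −1.61 to −0.10), and *Snrnp48*, also of it, had 201 and 218 (0.47; 0.19 to 0.76).

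Before they enter snRNPs, Sm proteins are methylated by the PRMT5 complex and loaded on the RNA by the SMN complex. Of 11 assembly genes tested, 2 lay above 0 and 2 below, with a median of −0.07. *Wdr77*, the partner of PRMT5, was called higher with 121 counts in KO and 63 in WT (1.52; 1.08 to 2.00), while *Prmt5* itself had 56 and 130 counts (−0.62; −1.10 to −0.16). *Smn1* had 60 and 58 counts (0.64; 0.10 to 1.19) and *Gemin2*, its direct partner, 60 and 152 (−0.74; −1.20 to −0.31). *Gemin4* had 0 counts in both libraries. The 2 cold-inducible RNA-binding genes lay on opposite sides of 0 on the TMM scale, *Cirbp* at 0.56 and *Rbm3* at −0.67. By total counts the value of *Cirbp*, with 85 counts in KO and 87 in WT, would turn negative.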
